A study of Mus musculus with 4 samples.

Results

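The cells described here were the stromal and endothelial cells of mouse brown adipose tissue (BAT) that carried transcripts of the cell cycle, 222 of the 28887 cells (0.769%) that passed the quality limits. BAT burns fuel to make heat, and its stromal vascular fraction (SVF) is what remains of the digested tissue once the fat-filled adipocytes are removed: fibroblast-like stromal cells, among them the progenitors of adipocytes, endothelial cells of the vessels, and immune cells. A cell was taken as stromal when the collagen genes Col1a1, Col1a2 and Col3a1 with Dcn and Gsn held at least 60 of every 10000 of its transcripts, and as endothelial when Cdh5, Cldn5, Gpihbp1, Kdr and Flt1 held at least 40. Cells that met both conditions were left out, as were cells in which the macrophage genes Lyz2, C1qa, C1qb and C1qc held 20 or more. A stromal or endothelial cell counted as cycling with at least 3 transcripts, counted as unique molecular identifiers (UMIs), of 5 genes together: Mki67, Top2a, Birc5, Cdk1 and Ube2c. The cells were thus chosen by their measured UMIs of these genes, and differences between cycling and other cells of the same class are given as description, without a test.

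The SVF was profiled in 4 libraries, 1 for each group. The WT library came from C57BL6/J mice labelled as 10 weeks old, the 8-week and 16-week db/db libraries (8w and 16w in the plots) from mice that lack a working leptin receptor and grow obese and diabetic, and HFD from mice on a high-fat diet, labelled as 10 weeks old. By the methods of the study the diet began at 10 weeks of age and lasted 10 weeks, which the age label of the HFD group does not match. By the same methods each library pooled the SVF of 3 mice, all animals were males, the db/db mice were of the line B6.BKS(D)-Leprdb/J, and the suspension was loaded after a cell sort whose criterion was not given in the sources used here. With 1 library per group there was no replicate, so group, pool, sort and library cannot be told apart, and the intervals given cover errors of counting and nothing else. Lepr itself was a poor check of the labels, with 25, 16, 1 and 8 UMIs in all cells of WT, 8-week db/db, 16-week db/db and HFD, and 0 in the cycling cells. The libraries held 28504069 to 61828295 UMIs and 5462 to 11648 cells that passed the limits.

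The 16-week db/db library stood apart from the other 3. Xist, the RNA of the inactive X chromosome in female cells, had 82 UMIs in its cycling stromal cells, where 26 of 33 cells carried at least 1, and 0 in those of the other 3 libraries. Transcripts of the Y chromosome numbered 4 in the same 33 cells, against 74 in WT, 81 in 8-week db/db and 50 in HFD. Its mitochondrial share was also the lowest, at a median of 0.192% of the UMIs of a cycling stromal cell against 5.09% in WT, 3.83% in 8-week db/db and 7.19% in HFD. The Xist and Y-linked counts of this library do not match the male sex that the methods give for all animals. Values of the library labelled 16-week db/db are thus printed separately. It was not left out of results stated over all 4 libraries or over the 3 obese ones. A doublet, 2 cells captured as 1, can also join a stromal cell to a dividing cell of another kind. Scrublet scores, with the share of predicted doublets set from the number of barcodes, marked 20 of 35 cycling stromal cells in HFD, 7 of 33 in 16-week db/db, 2 of 53 in 8-week db/db and 5 of 45 in WT. In non-cycling stromal cells the marked share ran from 5.03% in 16-week db/db to 11.7% in 8-week db/db. Over the 6 pairs of libraries a total of 91 barcodes occurred in both libraries of a pair, and none was a cycling cell in both.

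A cell that divides copies its DNA in S phase and separates the copies in mitosis, and it makes the transcripts of each step only around that step. Genes of DNA synthesis are switched on by E2F factors at the entry to S phase, and genes of mitosis later by the MuvB complex with B-MYB and FOXM1. In adipose tissue most stromal and endothelial cells rest, and new adipocytes and vessels arise from the few that divide. The 5 genes of the rule belong mainly to the later group. Mki67 coats the mitotic chromosomes, Top2a untangles DNA, Birc5 belongs to the complex that corrects chromosome attachment, Cdk1 is the kinase that drives entry into mitosis, and Ube2c marks cyclins for destruction at mitotic exit.

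The promoters of the 5 genes are shown because these genes define the cells. They were searched for a known promoter design of mitotic genes: CCAAT boxes, bound by NF-Y, and a cell cycle homology region (CHR), bound by MuvB. Each line gives the 120 bases before the RefSeq transcription start (GRCm38.p6), 5′ to 3′ on the strand of the gene, with CHR-like TTTGAA and CCAAT, or their reverse complements TTCAAA and ATTGG, in capitals. All 5 genes were found in the RefSeq promoter table.
Mki67: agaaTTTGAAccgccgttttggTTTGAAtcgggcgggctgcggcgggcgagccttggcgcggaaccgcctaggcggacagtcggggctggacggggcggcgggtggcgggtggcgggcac
Top2a: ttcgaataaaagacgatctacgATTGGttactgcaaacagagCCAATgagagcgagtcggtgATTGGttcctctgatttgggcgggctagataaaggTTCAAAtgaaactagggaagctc
Birc5: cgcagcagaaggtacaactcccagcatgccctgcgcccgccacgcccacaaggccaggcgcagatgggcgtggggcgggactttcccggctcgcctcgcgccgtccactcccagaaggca
Cdk1: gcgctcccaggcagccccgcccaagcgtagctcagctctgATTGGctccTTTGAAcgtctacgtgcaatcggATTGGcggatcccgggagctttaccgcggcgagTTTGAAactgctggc
Ube2c: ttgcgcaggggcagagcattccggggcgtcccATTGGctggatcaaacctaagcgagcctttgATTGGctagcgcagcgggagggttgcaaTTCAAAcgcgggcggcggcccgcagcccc
The windows lie at chr7:135716380-135716499 on the minus strand for Mki67, chr11:99024190-99024309 minus for Top2a, chr11:117849117-117849236 plus for Birc5, chr10:69352913-69353032 minus for Cdk1 and chr2:164769809-164769928 plus for Ube2c. For Cdk1 and Ube2c the GENCODE gene model starts inside the printed window. In the 250 bases before the start, TTTGAA on either strand occurred 2 times in Mki67, Top2a and Cdk1, 1 time in Ube2c and 0 times in Birc5. Birc5 held instead 1 copy of the related TTTAAA, at 220 bases before the start and so outside the printed stretch. CCAAT on either strand occurred 6 times in Top2a and Ube2c, 3 times in Mki67 and Cdk1 and 0 times in Birc5. Birc5 thus lacked both CCAAT and TTTGAA in this window, unlike the other genes of the rule. Among all 32851 promoter windows of this length, 16.0% held TTTGAA, 12.1% TTTAAA and 33.8% CCAAT, on either strand. In the printed stretches no motif overlaps another, while farther from the start of Ube2c a CCAAT on each strand share letters and were counted separately. A match in the letters describes the sequence only.

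Of the 222 cycling cells 166 were stromal and 56 endothelial. The stromal ones were spread over all libraries, with 45 in WT, 53 in 8-week db/db, 33 in 16-week db/db and 35 in HFD. The endothelial ones were 55 from HFD and 1 from 16-week db/db, and the values of cycling endothelial cells below are those of HFD. Cycling cells carried more RNA than the non-cycling cells of their class, which had 0 UMIs of the 5 genes. Median UMIs per cycling stromal cell were 10537 in WT, 8653 in 8-week db/db, 11020 in 16-week db/db and 8502 in HFD, against 6753, 3682, 2611 and 4942 in non-cycling ones. Cycling endothelial cells had a median of 6877 UMIs and non-cycling ones 4357.5. A cell with more UMIs has more chances to reach 3, so part of this gap comes with the rule.

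The number of UMIs of the 5 genes varied widely among the cycling cells. The median was 18 in WT, 10 in 8-week db/db, 12 in 16-week db/db and 9 in HFD stromal cells and 10 in HFD endothelial cells, and the highest were 122, 84, 72, 87 and 48. All 5 genes were found together in 59 of 166 stromal and 14 of 56 endothelial cells. At 3 or 4 UMIs, just inside the rule, stood 37 stromal and 9 endothelial cells. Just outside it, with 1 or 2 UMIs, were 95 stromal cells in WT, 246 in 8-week db/db, 43 in 16-week db/db and 114 in HFD, and 114 endothelial cells in HFD.

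The expression of 12 division genes that the rule did not use (Cenpf, Cenpe, Tpx2, Nusap1, Prc1, Hmmr, Aspm, Kif11, Ccna2, Ccnb1, Cdca8 and Bub1b) was graded across this threshold. At least 1 UMI of the 12 was found in 5.80% of the stromal cells without a UMI of the 5 genes (701 of 12087), in 13.4% of those with 1 (60 of 448) and in 28% of those with 2 (14 of 50). Inside the rule it was 17 of 25 cells at 3 UMIs, 10 of 12 at 4 and 10 of 11 at 5. Among endothelial cells the share was 5.89% at 0 UMIs, 12.2% at 1 and 40% at 2 (8 of 20). Inside the rule it was 2 of 4 cells at 3 UMIs and 5 of 5 at 4 UMIs. In all, 155 of 166 cycling stromal and 53 of 56 cycling endothelial cells had a UMI of the 12 genes, and 141 and 50 had at least 3.

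Each of the 5 genes was present in cycling stromal cells of each library. Levels are given as CPM, the UMIs of the gene for every 1000000 UMIs summed over the cells of a class, from 3′ tags and so not divided by gene length. Mki67 (chr7:135689784-135716361) had 787 CPM in WT (95% Poisson interval 714 to 864), 546 in 8-week db/db (489 to 609), 460 in 16-week db/db (393 to 535) and 846 in HFD (747 to 954), and 816 in HFD endothelial cells (733 to 905). Top2a (chr11:98992943-99024189) had 828, 465, 306 and 743 CPM, and 574 in the endothelial cells. Birc5 (chr11:117849251-117855743) had 266, 292, 377 and 266, and 139 in the endothelial cells. The values of Birc5 were highest in 16-week db/db, where those of Mki67 and Top2a were lowest. Cdk1 (chr10:69335146-69352938) had 310 CPM in WT, 176 in 8-week db/db, 212 in 16-week db/db and 144 in HFD, and 101 in the endothelial cells. Ube2c (chr2:164769898-164778822) had 542, 354, 239 and 250, and 208 in the endothelial cells. Since UMIs of these genes chose the cells, their levels are a description and no order of libraries is read from them. By cell, Mki67 was found in 43 of 45, 48 of 53, 26 of 33 and 32 of 35 stromal cells in the same order and in 52 endothelial cells, and Ube2c in 38, 36, 23 and 15 stromal cells and 29 endothelial ones.

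Genes of each lineage that the gates did not use matched the class names. Pdgfra, the receptor that marks adipose fibroblasts and progenitors, had a UMI in 43 of 45 cycling stromal cells in WT, 48 of 53 in 8-week db/db, 33 of 33 in 16-week db/db and 30 of 35 in HFD, and in 4 of 55 cycling endothelial cells in HFD. Pecam1, the adhesion molecule of endothelial junctions, had a UMI in 55 of 55 endothelial cells and in 4, 0, 2 and 8 stromal cells. The 14 stromal genes outside the gate, such as Lum, Dpt and Serping1, summed to 8767, 8618, 8232 and 7928 CPM in cycling stromal cells, and to 1321 in the endothelial ones. Every one of these stromal sums was below that of the non-cycling stromal cells (11210, 12467, 12990 and 12248 CPM). The 14 endothelial genes outside the gate, such as Tie1, Esam and Egfl7, summed to 5060 CPM in cycling and 5311 CPM in non-cycling endothelial cells, and none of the 14 differed by at least 2-fold.

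The share of cycling cells among stromal cells depends on sequencing depth, so each cell was thinned to 2000 UMIs and shallower cells were left out, 438 in WT, 1708 in 8-week db/db, 400 in 16-week db/db and 32 in HFD. The cycling share was then 0.809% in WT (95% exact interval 0.550 to 1.15; 31.1 of 3844 cells, a mean over all draws) and 0.668% in 8-week db/db (0.439 to 0.972; 26.6 of 3986). It was 1.96% in 16-week db/db (1.11 to 3.18; 15.4 of 789) and 1.25% in HFD (0.756 to 1.93; 19.4 of 1554). The 16-week db/db share was 2.42-fold that of WT, a log2 ratio of 1.27 with an interval of 0.29 to 2.20. The log2 ratio to WT was -0.28 (-1.08 to 0.52) for 8-week db/db and 0.62 (-0.28 to 1.49) for HFD, both with intervals that hold 0. Between obese libraries it was 1.55 (0.54 to 2.51) for 16-week db/db over 8-week db/db and 0.90 (-0.02 to 1.80) for HFD over 8-week db/db.

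The raised 16-week db/db share kept its direction under the other settings, but its interval reached 0 when the 12 other division genes replaced the 5 (0.96, -0.01 to 1.86) and with at least 2 UMIs of the 5 at 1000 UMIs per cell (0.99, -0.04 to 1.95). For HFD the direction turned: without predicted doublets the HFD share was 0.497% (6.80 of 1368 cells) and its log2 ratio to WT -0.74 (-2.19 to 0.50), while among cells under 10% of mitochondrial UMIs it was 1.33 (0.33 to 2.29). Before thinning the shares were 1.05% (0.768 to 1.40), 0.931% (0.698 to 1.22), 2.78% (1.92 to 3.88) and 2.21% (1.54 to 3.06) in WT, 8-week db/db, 16-week db/db and HFD. A cell type that should not divide gives a background for free RNA in the droplets: of 126 cells with neutrophil genes, 2 carried 3 UMIs of the 5 genes (1.59%, 0.193 to 5.62), and after thinning 0.895 of 29 (3.09%). These cells were too few to place a background below the stromal shares. Cells with macrophage genes had higher thinned shares than stromal cells in every library, 1.17, 2.80, 11.8 and 4.93%. How far the sort, free RNA or doublets set the shares was not tested.

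**Figure D1:**
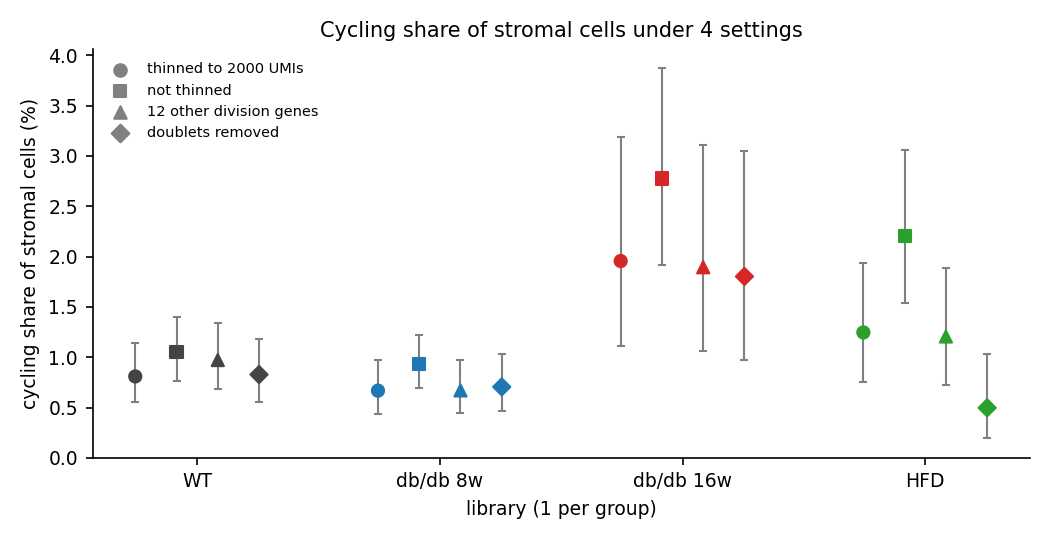
Cycling share of stromal cells (percent, y axis) in each of the 4 libraries (x axis) under 4 settings: thinned to 2000 UMIs, not thinned, called by 12 other division genes after thinning, and with predicted doublets removed after thinning. Bars are 95% exact intervals for counting error. The 16-week db/db points sit above the WT points in each setting, while the HFD point goes from 1.25% to 0.497% without predicted doublets.

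Among endothelial cells the cycling share was 2.59% in HFD after thinning (1.76 to 3.68; 30.0 of 1158 cells) and 0.545% in 16-week db/db (0.00889 to 3.28; 0.878 of 161). The log2 ratio of 2.25 had an interval of -0.47 to 8.23, since 1208 of the 1369 endothelial cells of 16-week db/db had fewer than 2000 UMIs. Without thinning the shares were 4.53% (3.43 to 5.86; 55 of 1213) and 0.0730% (0.00185 to 0.406; 1 of 1369), at median depths of 4357.5 UMIs in HFD and 974 in 16-week db/db for the non-cycling cells. The other libraries held few endothelial cells, with 0 of 12 cycling in WT, which allows a share of up to 25% at a floor of 3 cells and 26.5% by the exact interval, and 0 of 68 in 8-week db/db, which allows 4.41% and 5.28%. These limits hold the unthinned HFD share in WT and, by the exact interval, in 8-week db/db.

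Transcripts of division outweighed those of DNA replication in cycling cells of each library, and most so in WT. The 56 replication genes (origin and fork lists below) together had 2329 CPM in WT, 3144 in 8-week db/db, 2730 in 16-week db/db and 3178 in HFD stromal cells. The 56 division genes (kinetochore and spindle lists without Stmn1 and the tubulins) had 9081, 5404, 4195 and 5868 CPM. The replication sum was lowest and the division sum highest in WT. The log2 ratio of replication to division was -1.96 (95% interval -2.05 to -1.87) in WT, -0.78 (-0.86 to -0.70) in 8-week db/db, -0.62 (-0.74 to -0.50) in 16-week db/db and -0.89 (-1.0 to -0.77) in HFD. The 3 obese libraries thus stood above WT by more than the counting error of the summed UMIs. These intervals leave out the spread between cells, where division UMIs per cell ran from 2 to 434 in WT. In HFD the ratio was 0.054 without predicted doublets, which left 15 cells. Cycling endothelial cells had 2192 and 5087 CPM, a log2 ratio of -1.21 (-1.33 to -1.10). Non-cycling stromal cells had 390 to 494 CPM of the replication genes and 80.6 to 130 CPM of the division genes. The rule genes are mostly genes of division, so the balance within a library follows in part from the rule.

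Cell by cell the picture was mixed. More division than replication UMIs were found in 40 of 45 cycling stromal cells in WT, 32 of 53 in 8-week db/db, 21 of 33 in 16-week db/db and 21 of 35 in HFD. In all, 114 of 166 had more division UMIs, 48 had more replication UMIs and 4 had equal numbers. The median cell held 10, 20, 29 and 28 replication UMIs and 79, 26, 37 and 31 division UMIs in the same order. In HFD endothelial cells 43 of 55 had more division UMIs, with medians of 14 replication and 31 division UMIs.

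**Figure D2:**
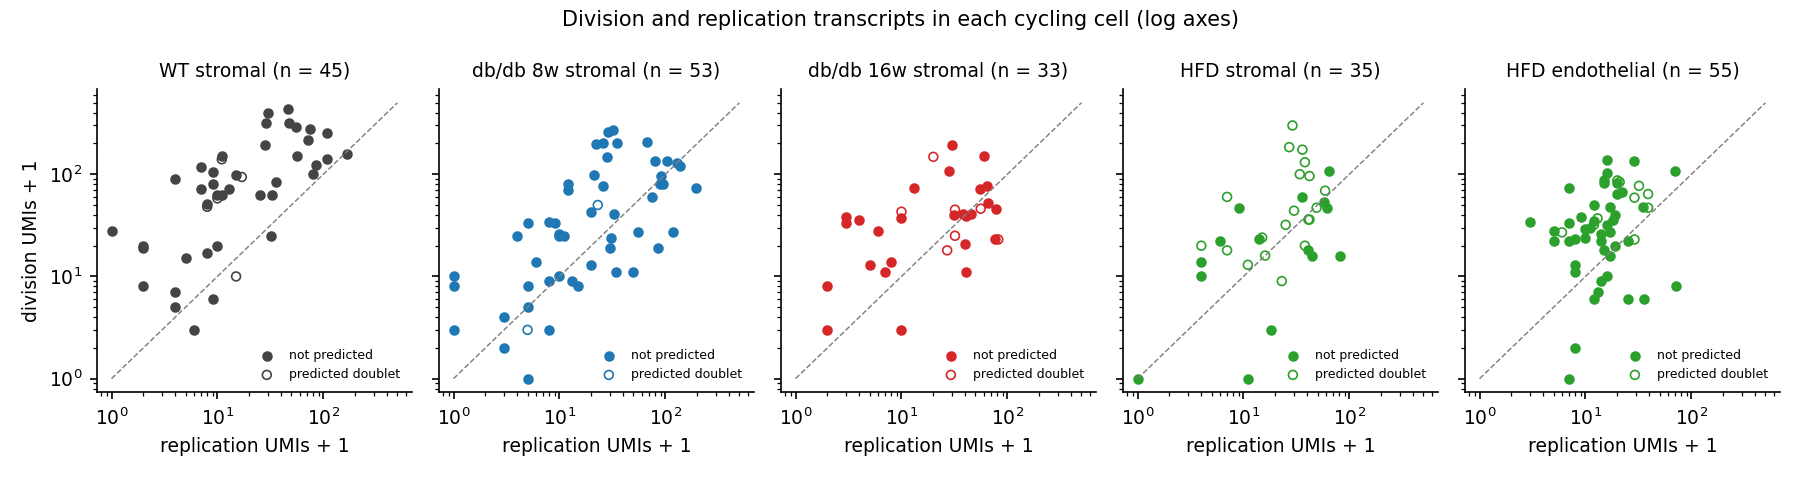
UMIs of the 56 division genes (y axis, plus 1, log scale) against UMIs of the 56 replication genes (x axis, plus 1, log scale) in each cycling cell, with 1 panel for the stromal cells of each library and 1 for HFD endothelial cells. Open circles are predicted doublets and the dashed line marks equal numbers; 40 of 45 WT cells lie above it against 21 of 35 HFD stromal cells, and 20 of those 35 are predicted doublets.

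To describe what else set the cycling cells apart, each gene with at least 20 CPM in cycling or non-cycling cells was compared between them within each library, as log2 of the ratio after adding 10 CPM to both. Of 5239 genes measured in all 4 libraries, 198 (3.78%) were at least 2-fold higher in cycling stromal cells in all 4 and 25 (0.477%) at least 2-fold lower. In HFD endothelial cells 280 of 6807 genes (4.11%) were at least 2-fold higher and 43 (0.632%) lower. The rule chose the cells on the same counts, so the figures describe the cells and are read no further. Ratios of genes near 0 CPM in non-cycling cells are set largely by the 10 CPM added.

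The genes with the largest differences were genes of the mitotic spindle and chromosomes. Stmn1, which destabilises microtubules, had 953 CPM in cycling against 4.31 in non-cycling stromal cells in WT, 668 against 9.55 in 8-week db/db, 597 against 17.5 in 16-week db/db and 826 against 17.5 in HFD. Prc1, which bundles microtubules between the separating chromosomes, had 636 against 0.910, 329 against 1.47, 242 against 1.64 and 375 against 7.23. Cenpf, a protein of the kinetochore, had 828, 208, 272 and 532 CPM in cycling cells and at most 2.37 in non-cycling ones. All of these were several log2 units higher in each library: 6.07, 5.12, 4.46 and 4.93 for Stmn1, 5.89, 4.88, 4.44 and 4.48 for Prc1. The linker histone gene Hist1h1b followed at 4.81, 5.44, 4.15 and 4.22, and the replication factor gene Pclaf, which binds PCNA, at 3.68, 4.70, 4.03 and 4.56. Tpx2, which builds spindle microtubules, and the cyclin gene Ccnb2 stood at 4.13 or above and 3.78 or above in every library. Hmmr, Cdca3 and Cdca8 completed the 10 genes with the highest smallest ratio.

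By function, the lists of DNA replication were higher in cycling stromal cells in every library. Among all genes measured, 7.69% were at least 2-fold higher in cycling cells of WT, 7.12% in 8-week db/db, 8.25% in 16-week db/db and 8.24% in HFD. Of the genes that license and fire replication origins, 8 of 10 measured were at least 2-fold higher in WT, 11 of 12 in 8-week db/db, 8 of 10 in 16-week db/db and 11 of 11 in HFD, with median log2 ratios of 1.59, 1.46, 1.69 and 2.0. Dbf4, the activator of the CDC7 kinase, had 105, 53.1, 60.6 and 80.1 CPM in cycling cells, and Mcm7, a subunit of the replicative helicase, 70.7, 58.1, 63.3 and 64.1. Of the genes of the fork and of nucleotide supply 27 of 29, 28 of 31, 23 of 30 and 32 of 35 were higher, with medians of 1.65, 1.89, 1.46 and 1.70. Pcna, the sliding clamp of the polymerases, had 123, 238, 231 and 160 CPM against 32.5, 40.2, 36.4 and 57.5 in non-cycling cells. Rrm1, a subunit of the enzyme that makes deoxynucleotides, had 112, 158, 151 and 167 CPM in cycling cells. Both genes were lowest in WT, as the replication sum was. In endothelial cells 7 of 12 origin genes and 18 of 27 fork genes were higher, with medians of 1.03 and 1.21, and Pcna stood at 203 against 169 CPM, a log2 ratio of 0.25.

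Histone genes were higher as well, with 13 of 15, 14 of 16, 12 of 15 and 13 of 14 measured at least 2-fold up and medians of 2.73, 2.82, 2.57 and 2.60. H2afz, which encodes the variant H2A.Z, had 1024, 1297, 1671 and 1630 CPM in cycling cells, with log2 ratios of 2.83 to 3.01. The replication-dependent Hist1h2ap varied far more, at 1151 CPM in WT, 860 in 8-week db/db, 2752 in 16-week db/db and 106 in HFD, and was found in 20 of 45, 26 of 53, 18 of 33 and 11 of 35 cells. It belongs to a cluster of near-identical genes, most of whose transcripts lack a poly(A) tail, so its counts are uncertain. In endothelial cells 8 of 11 histone genes were higher, with a median of 1.74.

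The lists of mitosis stood further from 0 than those of replication. Of kinetochore and checkpoint genes 23 of 23, 24 of 24, 23 of 23 and 23 of 23 were higher, with medians of 3.43, 2.84, 2.52 and 2.79, and in endothelial cells 21 of 22 with 2.42. Cenpa, the histone H3 variant that marks the centromere, had 388, 236, 306 and 147 CPM in cycling stromal cells and 176 in endothelial ones. Cenpe, a kinetochore motor, had 263, 204, 66.1 and 263 CPM, lowest in 16-week db/db. Of spindle and cytokinesis genes every one measured was higher, 37, 36, 34 and 33 genes, with medians of 3.52, 3.01, 2.61 and 2.81, and in endothelial cells 33 of 34 with 2.75. The tubulin genes Tubb5 (1716, 1091, 1084 and 1019 CPM) and Tuba1b (770, 450, 661 and 564 CPM) were the most abundant of this list beside Stmn1. The medians of both lists were highest in WT.

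Condensin and chromatin genes were higher for 18 of 20, 17 of 21, 16 of 20 and 18 of 20 members, with medians of 2.78, 2.15, 2.03 and 2.11. Hmgb2, a chromatin protein of dividing cells, had 794, 791, 870 and 727 CPM in cycling stromal cells and 1051 in endothelial ones. Smc4, a core subunit of condensin, had 556, 365, 245 and 384 CPM. Cyclins, kinases and their regulators were higher for 19 of 22, 21 of 24, 22 of 25 and 20 of 24 members, with medians of 2.87, 1.92, 1.87 and 1.74. Cks2, a partner of CDK1, had 522, 458, 308 and 211 CPM, and Ube2s, which works with Ube2c, 430, 443, 272 and 429. The D-type cyclins, which act before S phase, did not follow the list: Ccnd2 had 59.8, 113, 71.6 and 92.9 CPM in cycling against 118, 135, 121 and 260 in non-cycling cells. Ccnd1 had 10.9, 11.6, 105 and 48.0 CPM against 17.3, 17.7, 13.1 and 21.7, so that it was at least 2-fold higher in 16-week db/db and not in WT or 8-week db/db. Cdk4, their kinase, had 61.6, 151, 193 and 125 CPM against 42.3, 52.5, 76.1 and 53.6.

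Cell cycle transcription factors were detected at low levels, and 5 of 10, 4 of 10, 5 of 10 and 4 of 8 measured were at least 2-fold higher. Foxm1, the factor of mitotic genes named above, had 70.7, 49.8, 22 and 51.3 CPM in cycling cells and log2 ratios of 2.94, 2.44, 1.24 and 2.51. Myc was not one of them in any library, with 59.8 against 113 CPM in WT, 28.2 against 54.5 in 8-week db/db, 44.0 against 22.2 in 16-week db/db and 41.6 against 45.5 in HFD. Genes of CDK inhibitors and quiescence had medians just below 0, at -0.13, -0.37, -0.42 and -0.41, and held members on both sides. Cdkn2c and Cdkn2d, inhibitors of CDK4 and CDK6, were higher except for Cdkn2c in 16-week db/db, with log2 ratios of 3.71, 2.44, 0.64 and 1.34 for Cdkn2c and 2.52, 1.76, 1.10 and 2.51 for Cdkn2d. Txnip, a gene of growth arrest and glucose uptake, was lower, at 694 against 2510 CPM in WT, 704 against 2397 in 8-week db/db, 1007 against 3592 in 16-week db/db and 660 against 1558 in HFD. Cdkn1a, which encodes p21, differed little, with log2 ratios of -0.23, -0.37, -0.42 and -0.18.

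**Figure D3:**
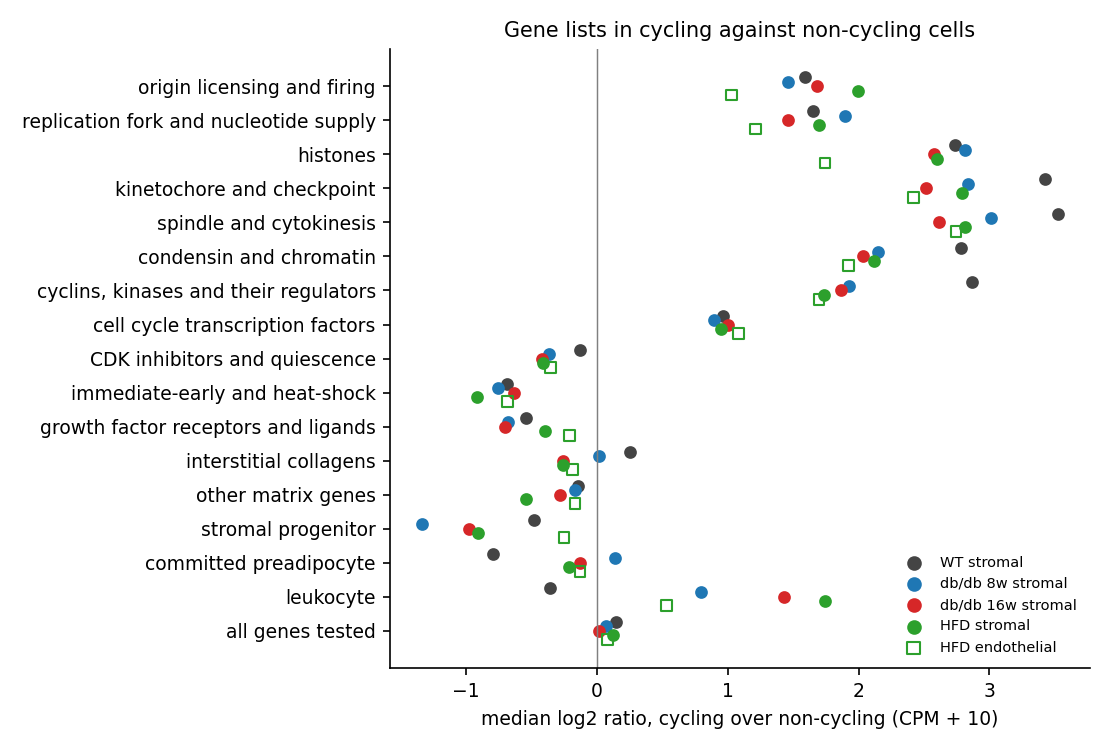
Median log2 ratio (x axis, CPM plus 10) of cycling over non-cycling cells for each gene list (y axis), with 1 filled point for the stromal cells of each library and an open square for HFD endothelial cells. The replication, histone and mitosis lists stand right of 0 in each, and the WT point is furthest right for kinetochore (3.43) and spindle genes (3.52). For the leukocyte list the points run from -0.36 in WT, where 1 gene was measured, to 1.74 in HFD stromal cells, where 9 were.

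The 10 genes furthest below the non-cycling stromal cells were mostly secreted proteins, receptors and enzymes of resting fibroblasts. Inmt, a methyltransferase, had 25.4 against 664 CPM in WT, 46.5 against 247 in 8-week db/db, 19.3 against 186 in 16-week db/db and 70.5 against 249 in HFD. Ogn, a small matrix proteoglycan, had 234 against 913, 133 against 548, 52.3 against 379 and 301 against 889. Gpx3, a secreted glutathione peroxidase, had 966 against 2220, 339 against 844, 220 against 750 and 275 against 682. These genes were lower in each library, by 1.53 to 2.64 log2 units for Ogn and 1.19 to 1.72 for Gpx3. Podn, a matrix proteoglycan, had log2 ratios of -1.39, -1.60, -2.11 and -1.07. Slfn5, Galnt15, Pamr1, Pcsk6 and Txnip were also among them. Inmt, Galnt15 and Pcsk6 missed 2-fold in at least 1 library when non-cycling cells of matched depth were compared, at ratios of -0.65, -0.62 and -0.58 nearest to 0.

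Adipose fibroblasts include interstitial progenitors, marked by Pi16 and Dpp4, and committed preadipocytes, marked by Col15a1 and basement membrane collagens, and the cycling cells did not stand on one side of this division. Among all genes, 2.63% were at least 2-fold lower in cycling cells of WT, 4.48% in 8-week db/db, 8.18% in 16-week db/db and 3.38% in HFD. The progenitor list had medians of -0.48 in WT (1 of 12 genes at least 2-fold lower), -1.34 in 8-week db/db (7 of 12), -0.98 in 16-week db/db (3 of 7) and -0.91 in HFD (3 of 10). The committed list had medians of -0.80 (5 of 12 lower), 0.14 (1 lower and 1 higher of 12), -0.13 and -0.21. To compare both at equal depth, cells were thinned to 2000 UMIs. Pi16 was then found in 72.3% of cycling against 78.3% of non-cycling stromal cells in WT, 44.2 against 45.8% in 8-week db/db, 1.22 against 7.86% in 16-week db/db and 9.63 against 20.4% in HFD. Cells with macrophage genes, which should lack it, gave 21.2, 10.9, 0.713 and 2.50%, so the 16-week db/db value is near the background. Dpp4 was found in 48.8% (33.4 to 64.3) against 58.7% in WT, 13.9% (5.72 to 26.8) against 31.6% in 8-week db/db, 0.978 against 3.32% in 16-week db/db and 7.14 against 15.6% in HFD, with 6.71, 3.12, 0.0537 and 1.72% in cells with macrophage genes. In 8-week db/db the interval of Dpp4 thus lies below the share of non-cycling cells, which that of Pi16 does not. Col15a1 was found in 13.4 against 8.16%, 48.0 against 39.9%, 76.5 against 72.0% and 65.4 against 63.9%, with a background of 0.679 to 5.72%. Col4a1 was found in 39.6% (25.2 to 55.5) against 56.0% in WT, 65.2 against 75.4%, 94.5 against 96.0% and 92.0 against 91.7%, with a background of 3.38 to 19.7%. As in the non-cycling cells, Pi16 was thus more frequent in WT than in each obese library and Col15a1 less frequent. In 8-week db/db the picture was mixed, with Pi16 and Col15a1 in 44.2 and 48.0% of cycling and 45.8 and 39.9% of non-cycling cells. Timp1, an inhibitor of matrix proteases, was more frequent in cycling cells of the obese libraries: 49.7% (35.1 to 64.4) against 15.9% in 8-week db/db, 45.1% (27.5 to 63.6) against 23.6% in 16-week db/db and 33.1% (18.2 to 51.0) against 19.5% in HFD, where the last interval holds the non-cycling share. In WT it was 6.87 against 3.21%.

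Of the other stromal lists, genes of Cilp, Eln and Apod fibroblasts had medians of -1.37, -1.56, -2.75 and -1.07, with 3 of 5, 4 of 6, 5 of 6 and 4 of 6 members at least 2-fold lower. The interstitial collagens, 3 of which form the gate, had medians of 0.25, 0.02, -0.26 and -0.26. Other matrix genes had -0.15, -0.17, -0.28 and -0.54, and growth factor receptors and ligands -0.54, -0.68, -0.70 and -0.40. Activated fibroblast genes had -0.24, 0.08, 0.52 and 0.22. In that list the chemokine gene Ccl2 had 366 against 458 CPM in WT and 495 against 468 in 8-week db/db. It had 600 against 81.3 in 16-week db/db and 285 against 110 in HFD. A UMI of Ccl2 was found in 22 of 45, 23 of 53, 16 of 33 and 8 of 35 cycling cells. In the same order the 3 highest cells held 70.3, 61.1, 57.8 and 84.3% of its UMIs. Immediate-early and heat-shock genes, which respond to tissue digestion, had medians of -0.69, -0.76, -0.64 and -0.91, and -0.68 in endothelial cells, with 3, 2, 1 and 3 of 10 stromal members and 1 of 10 endothelial members at least 2-fold lower. The median over all genes was 0.15, 0.07, 0.02 and 0.13, and 0.08 in endothelial cells. Of all genes 2.63, 4.48, 8.18 and 3.38% were at least 2-fold lower in stromal cells and 0.632% in endothelial cells. The 1 of 10 immediate-early and heat-shock genes in 16-week db/db is near that share.

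Transcripts of other cell types were present and differed between libraries. The 10 leukocyte genes, such as Ptprc, Laptm5 and Tyrobp, summed to 56.2 CPM in cycling stromal cells of WT, 593 in 8-week db/db, 1434 in 16-week db/db and 2386 in HFD, against 74.9, 286, 294 and 635 in non-cycling cells. Cells in which they held at least 20 of every 10000 UMIs numbered 0, 5, 6 and 8, and 6 in the endothelial cells, where the sum was 935 against 660 CPM. The macrophage genes outside the limit summed to 158, 1463, 1283 and 1374 CPM in cycling stromal cells. Lists of T and NK cells (0 to 51.3 CPM), B cells (0 to 9.96), neutrophils (3.62 to 16.0), mesothelium (0 to 8.30) and skeletal muscle (7.25 to 38.5) were low in cycling stromal cells. In the endothelial ones T and NK genes summed to 96.0 CPM and B cell genes to 34.3. Schwann cell genes summed to 285, 126, 93.6 and 64.1 CPM. Pericyte and smooth muscle genes summed to 12.7, 254, 884 and 375 CPM in cycling stromal cells against 13.2, 36.3, 372 and 241. In 8-week db/db 3 cells held 77.3% of the UMIs of Acta2, smooth muscle actin. The same list summed to 786 CPM in cycling and 956 CPM in non-cycling endothelial cells of HFD. Rgs5, a gene of this list, had a UMI in 33 of 55 cycling endothelial cells. Erythroid genes reached 2945 CPM in 16-week db/db, where 1 cell held 576 of 581 UMIs of the globin gene Hbb-bs. The part of these transcripts in the differences between libraries was not tested beyond the values without predicted doublets and without cells rich in leukocyte genes.

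The obese libraries were then compared with WT among cycling stromal cells, a contrast the rule did not use. In 8-week db/db 489 of 7043 genes (6.94%) were at least 2-fold higher and 568 (8.06%) lower than in WT. In 16-week db/db 910 of 7118 (12.8%) were higher and 1515 (21.3%) lower, and in HFD 829 of 7409 (11.2%) were higher and 738 (9.96%) lower. The median log2 ratio over all genes was -0.09, -0.20 and 0.03. The 3 comparisons share the WT cells, and fewer cells of a type cannot be told apart from less RNA of a gene per cell.

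The 10 genes furthest above WT in all 3 obese libraries were also at least 2-fold higher in their non-cycling cells. Fabp4, a fatty acid carrier of adipocytes and capillaries, had 114 CPM in cycling stromal cells of WT, 9073 in 8-week db/db, 10134 in 16-week db/db and 8819 in HFD. It had a UMI in 16 of 45, 40 of 53, 33 of 33 and 34 of 35 cells, with medians of 0, 3, 64 and 30 UMIs per cell, and in 8-week db/db 3 cells held 70.6% of its UMIs. At 2000 UMIs per cell it was found in 15.5, 55.1, 96.4 and 91.8% of cycling stromal cells, and in 16.1, 57.3, 56.4 and 93.1% of cells with macrophage genes, which may hold some that express it. Only in 16-week db/db was the share in cycling stromal cells (83.1 to 99.9) above that in the macrophage-gene cells. The study names Fabp4 among genes of macrophages that handle lipids, so these cells are no clean background for it. In the other libraries the comparison thus cannot tell stromal expression from free RNA. Its log2 ratios to WT were 6.19, 6.35 and 6.15 in cycling and 3.13, 5.31 and 4.70 in non-cycling cells. Col15a1, a collagen of basement membrane zones, had 72.5, 661, 963 and 772 CPM, with ratios of 3.02, 3.56 and 3.24 in cycling and 2.75, 3.72 and 3.52 in non-cycling cells. Sparcl1, a secreted matricellular protein, had 18.1, 433, 856 and 939 CPM. Fabp5, a second fatty acid carrier, had 29.0, 379, 740 and 436 CPM, and Timp1 39.9, 943, 421 and 404. Each was thus lowest in WT by a wide margin, and Timp1 was highest in 8-week db/db. Tnc, a matrix protein of tissue repair, had 0 CPM in WT and 73.1, 495 and 125 CPM in the obese libraries. H2-Aa, a class II antigen presentation gene of immune cells, had 9.06, 126, 195 and 573 CPM, in the order of the leukocyte sums. In 16-week db/db its ratio to WT was -0.43 without predicted doublets and -0.49 without cells rich in leukocyte genes, and in HFD 2.55 and 2.83. Cxcl14, a chemokine, Fxyd5 and Aoc3 were also among the 10.

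Of the 10 genes furthest below WT, Ttr, the carrier of thyroxine and retinol, had 159 CPM in WT and 0 in each obese library. Dpp4 had 468 CPM in WT, 78.1 in 8-week db/db, 5.50 in 16-week db/db and 41.6 in HFD, with log2 ratios of -2.44, -4.95 and -3.21 in cycling and -1.11, -4.20 and -2.07 in non-cycling cells. Procr, a receptor of protein C found on progenitors, had 236, 43.2, 11 and 16.0 CPM, and Plac8 571, 99.6, 8.26 and 35.2. Chrdl1 and Bmp4, an antagonist and a ligand of BMP signalling, had 266, 46.5, 8.26 and 12.8 CPM and 59.8, 3.32, 0 and 6.41 CPM. Both the antagonist and the ligand were thus lower in each obese library. Irf7, a factor of interferon responses, had 85.2, 6.64, 2.75 and 9.61 CPM. Car8, Slc16a9 and Gpr1 were the others.

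The gene lists overlap with the single genes: Fabp4, Col15a1, Sparcl1 and Cxcl14 belong to the committed list and Dpp4 to the progenitor list. Their direction is thus no separate support for that of the single genes. Of the progenitor list 7 of 11 genes were at least 2-fold lower than WT in 8-week db/db, 10 of 10 in 16-week db/db and 9 of 10 in HFD, with medians of -1.15, -3.60 and -1.66 in cycling cells and -0.48, -3.05 and -1.23 in non-cycling ones. Of the committed list 11 of 12, 12 of 13 and 13 of 13 were higher, with medians of 2.40, 2.62 and 2.87 in cycling and 1.68, 2.27 and 2.62 in non-cycling cells. Both shifts were thus present in cycling and non-cycling cells alike in direction. Spindle genes had medians of -0.76, -1.10 and -0.72 with 5, 22 and 8 of 37 at least 2-fold lower than WT, and kinetochore genes -0.54, -0.78 and -0.32 with 1 of 24, 8 of 23 and 3 of 24. The spindle counts were 13, 25 and 24 without predicted doublets, 13, 19 and 12 with cells weighted equally and 1, 8 and 2 with 50 CPM added, while the medians stayed below 0. Of all genes 8.06% were at least 2-fold lower than WT in 8-week db/db, 21.3% in 16-week db/db and 9.96% in HFD. The count of kinetochore genes was below that share in 8-week db/db and near it in HFD. These kinetochore counts are not read as a trait of the list. The spindle counts under the other settings have no share of all genes beside them. Replication lists stood slightly above WT, origin genes at 0.36, 0.22 and 0.37 and fork genes at 0.34, 0.08 and 0.45. The leukocyte list was higher for 7 of 7, 10 of 10 and 9 of 9 genes, with medians of 2.11, 2.94 and 3.77. In 16-week db/db its median was -0.23 over the 2 genes still measured without predicted doublets and -0.24 without cells rich in leukocyte genes, while in 8-week db/db it was 1.80 and 1.04 and in HFD 2.42 and 1.87.

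**Figure D4:**
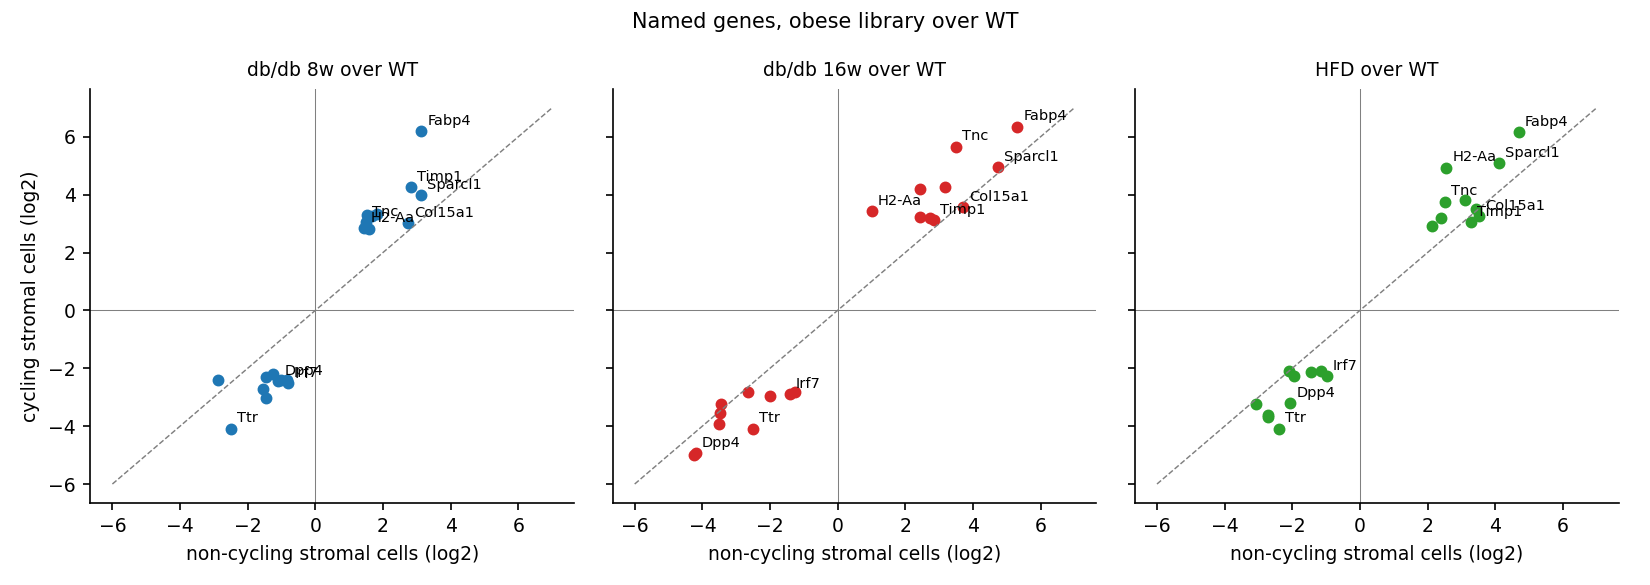
Log2 ratio to WT (CPM plus 10) of the 20 named genes in cycling stromal cells (y axis) against the same ratio in non-cycling stromal cells (x axis), with 1 panel for each obese library. The dashed line marks equal ratios; each gene lies on the same side of 0 on both axes, as Fabp4 does in 8-week db/db at 6.19 in cycling and 3.13 in non-cycling cells. Ratios of genes at 0 CPM in 1 of the libraries, such as Ttr and Tnc, are set by the 10 CPM added.

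Few genes separated the cycling endothelial cells of HFD from the non-cycling ones, with 4.11% of all genes at least 2-fold higher and 0.632% lower. None of 15 capillary genes measured differed by 2-fold from the non-cycling endothelial cells: Fabp4 had 33324 against 39110 CPM, Cd36, a fatty acid transporter, 4548 against 5737, and Gpihbp1, which anchors lipoprotein lipase in capillaries, 1389 against 1519. Gpihbp1 belongs to the gate. The lack of called capillary genes is near the shares of all genes and is not read as a trait of this list. Of 8 arterial genes 2 were at least 2-fold lower: Hey1, a Notch target, at 16.0 against 47.7 CPM and Stmn2 at 6.86 against 77.2. Sema3g, an arterial semaphorin, had 96.0 against 194 CPM, and at 2000 UMIs per cell was found in 13.6% (5.87 to 25.6) against 27.8% (25 to 30.7), with 2.09% in cells with macrophage genes. Of the venous list Vcam1 was higher, at 57.1 against 19.2 CPM, and the median was -0.17. The arterial list thus stood lowest of these lists, with a median of -0.55 against -0.28 for the capillary list.

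Endothelial tip cells lead new vessel sprouts, and 4 of 15 tip and angiogenic genes measured were at least 2-fold higher in the cycling cells, beside 4.11% of all genes. Nid2, a basement membrane linker, had 119 against 34.1 CPM, Pgf, a ligand of the VEGF family, 45.7 against 14.0, Apln, the ligand of the apelin receptor, 64.0 against 24.3, and Cxcr4, a chemokine receptor, 36.6 against 12. Aplnr, the apelin receptor itself, had 201 against 100 CPM, a log2 ratio of 0.94. At 2000 UMIs per cell Aplnr was found in 30.8% (19.1 to 44.7) of cycling against 14.9% (12.8 to 17.3) of non-cycling cells, and Nid2 in 20.3% (10.7 to 33.3) against 5.64%. Cells with macrophage genes had 1.26% and 1.43%. Both intervals of the cycling cells lie above the non-cycling shares. Col4a1 and Col4a2, the chains of basement membrane collagen, had 2475 against 1543 and 1067 against 754 CPM. The list was not uniform, since Dll4, the Notch ligand of tip cells, had 59.4 against 61.1 CPM and Esm1 6.86 against 1.80. The median of the list was 0.50, beside 0.08 over all genes, and 0.28 against non-cycling cells of matched depth.

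**Figure D5:**
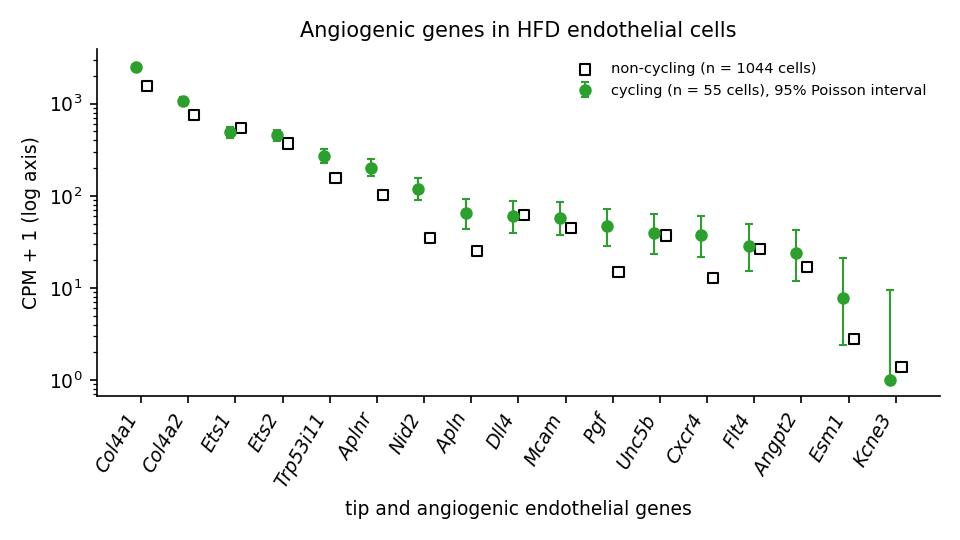
CPM plus 1 (y axis, log scale) of the 17 tip and angiogenic endothelial genes (x axis) in HFD endothelial cells, ordered by level in cycling cells. Filled circles are cycling cells with 95% Poisson intervals and open squares are non-cycling cells; the intervals of Aplnr, Nid2, Apln, Pgf and Cxcr4 lie above the squares, while those of Dll4, Mcam and Unc5b hold them.

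Of the 10 genes furthest above the non-cycling endothelial cells, Cenpf, Prc1, Tpx2, Hmmr and Ccnb2 were also among the 10 of the stromal cells. Cenpf had 628 against 5.39 CPM, Prc1 336 against 4.59, Cenpe 245 against 2.59, Tpx2 203 against 3.19 and Hmmr 162 against 0.998. Aspm, a spindle pole protein, Anln, which scaffolds the cleavage furrow, Ccnb2, Ckap2l and Kif20b completed the 10 highest, at log2 ratios of 3.56 to 3.87. All 10 are genes of mitosis. The lowest were Stmn2, at a log2 ratio of -2.37, Col8a1, a short-chain collagen, at 20.6 against 92.6 CPM, Osmr, the oncostatin M receptor, at 32.0 against 107, and Slc6a6, the taurine transporter, at 277 against 714. Fas, the death receptor, had 22.9 against 64.3 CPM. Syt7, Gm12216, Samd12, Slc30a1 and Nepn followed at -1.31 to -1.08.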

How the data were processed

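Single cells of the SVF of BAT were measured in 4 libraries of 10x Genomics 3′ transcripts. The deposited matrices hold raw UMI counts, called by the authors with Cell Ranger (7.1.0 in the submitters' processing notes, 6.0.0 in the file header) on mm10, without depth normalization. Gene coordinates came from the GRCm38 annotation, where 32158 of 32285 IDs (99.6%) were found.

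The cycling cells, gene lists, comparisons and naming rule were chosen with earlier results of these data known. Quality limits were 250 and 6000 genes, 500 and 30000 UMIs, and 15% mitochondrial UMIs. Non-cycling cells had 0 UMIs of the 5 genes. Counts were summed over cells of a class and library and scaled to CPM. Genes with at least 20 CPM in either group were compared as log2 ratios with 10 CPM added, and at least 2-fold counted as higher or lower. No test was run, as there was 1 library per group. Shares have exact Clopper-Pearson 95% intervals, CPM exact Poisson intervals, and ratios exact conditional binomial intervals. Thinned shares are means over all draws of 2000 UMIs, chosen in place of 1 random draw after the data were seen. Scrublet (Scanpy 1.11.5) scored doublets, and since its automatic threshold called 48, 0, 165 and 486 cells in WT, 8-week db/db, 16-week db/db and HFD, the top 0.8% per 1000 barcodes were marked instead (417, 1776, 320 and 787). Named genes were the 5 rule genes, the 4 most abundant members of each list, list members past 2-fold in all libraries, and the 10 highest and 10 lowest genes by their smallest ratio over the libraries at 50 CPM or more; 1 gene that met this rule is not reported here. The steps were tested on simulated data. Python 3.11.15, NumPy 2.4.6, pandas 2.3.3 and SciPy 1.17.1 were used. Alternatives were other thresholds, depths, filters and pseudocounts, and cells without predicted doublets or without leukocyte genes. Fits with replicates were not made.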

Additional observations from a re-analysis of the deposited data

Results flagged for a closer look

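Cells outside the stromal and endothelial conditions and below the macrophage limit also carried at least 3 UMIs of the 5 cell cycle genes. They made up 19.6% of such cells in 16-week db/db (218 of 1110; 95% exact interval 17.3 to 22.1) and 9.03% in HFD (50 of 554; 6.77 to 11.7), both with intervals above that of WT, where the share was 3.18% (7 of 220). In 8-week db/db the share was 5.89% (44 of 747), with an interval (4.31 to 7.83) that lies above the WT share but overlaps the interval of WT (1.29 to 6.45). These cells belong to no comparison of the report. Summed over them, the 10 leukocyte genes had 9236 CPM in WT, 8525 in 8-week db/db, 6277 in 16-week db/db and 8935 in HFD, and the stromal genes outside the gate 228, 171, 37.0 and 360 CPM. The endothelial genes outside the gate had 1065 CPM in HFD and 43.7 to 70.1 CPM in the other libraries.

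Xist had 82 UMIs in the cycling stromal cells of the library labelled 16-week db/db and 0 in those of WT. In its non-cycling stromal cells Xist had 1807 UMIs and Y-linked genes 72, while in WT they had 8 and 5566.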

How the results depend on the processing

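Of 121 alternative values of the main comparisons 102 stayed within the limits set for them, and of 338 values of single genes and further ratios 268 stayed. Among the rest, values that turned sign are named below. The share of cycling stromal cells in HFD over WT turned to a log2 ratio of -0.74 without predicted doublets, and that of HFD over 8-week db/db to -0.50. The ratio of replication to division genes moved to -0.91 in 16-week db/db and -0.73 in HFD when each cell counted equally, and to -1.13 in HFD with at least 5 UMIs of the 5 genes. In HFD it turned to 0.054 without predicted doublets. Without cells rich in leukocyte genes, an alternative chosen after seeing the data, it was -0.81 in 16-week db/db and -1.07 in HFD. Against non-cycling cells of matched depth the medians of progenitor and immediate-early genes moved to -0.54 and -0.85, and with 50 CPM added the median of CDK inhibitors moved to -0.22. The leukocyte list turned to -0.36 without predicted doublets and to -0.022 without cells rich in leukocyte genes. With 50 CPM added, the genes at least 2-fold higher and lower than WT numbered 137 and 107 in 8-week db/db, 353 and 404 in 16-week db/db and 200 and 204 in HFD, and without predicted doublets 1174 were lower in HFD. H2-Aa in 16-week db/db over WT turned to -0.43 and -0.49 without predicted doublets and without cells rich in leukocyte genes. Beyond the cells that each alternative removes, the cause was not tested. No paired analysis was possible because each group had 1 library. Cycling endothelial cells of HFD and 16-week db/db were not compared in expression, as 16-week db/db held 1, and a doubled endothelial gate gave no ratio of shares, with 0 of 88 cells in 16-week db/db.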
